A study of Danio rerio with 2 samples.

Results

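SR proteins and heterogeneous nuclear ribonucleoproteins (hnRNPs) are the general RNA-binding regulators of splicing. They were taken here as every gene of the deposited table whose symbol starts with srsf or hnrnp in either case. The rule found 41 genes of 51544 features, 17 srsf genes and 24 hnrnp genes, and used no measured value. Messenger RNA had been sequenced from heads of AB strain zebrafish embryos at 33 hours post fertilisation, severed anterior to the otic vesicle. The wildtype group has 1 library, and so has the group from an rbm24a mutant line with an 8 bp TALEN deletion in exon 1. Rbm24a is itself an RNA-binding protein, and the number of embryos behind each library is not given in the sources used here. No allele or agent other than this deletion is named for either group. The whole head was sequenced, and fewer cells of a type cannot be told apart from less RNA per cell.

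In animals, SR proteins bind exon sequences through RNA recognition motifs. They recruit the spliceosome with a tail rich in arginine and serine, which is phosphorylated by SR kinases. hnRNPs coat nascent transcripts, and many of them act against SR proteins at splice sites or mark exons to be skipped. Both kinds of gene are expressed in nearly all cell types, and in mammals many of them limit their own messenger RNA by splicing in an exon that leads to nonsense-mediated decay. Zebrafish keep several of these genes as a pair of copies.

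The libraries held 14148577 wildtype and 16667612 mutant reads assigned to features, and levels are given as CPM, counts scaled by that total. Where a gene is called more or less abundant, this refers to CPM and not to a level per length. With 1 library per group no difference has a replicate check, no test was made and no p-value is given. Intervals, printed in parentheses after a fold or share, are 95% exact (Clopper-Pearson) intervals and cover counting error alone. rbm24a (ENSDARG00000102995) had 224 wildtype and 121 mutant reads, a mutant level 2.18-fold below the wildtype (1.74 to 2.74). All 6 brain marker genes passed 1 CPM and summed to 1475 CPM in wildtype and 1370 CPM in mutant heads. The 7 retina genes summed to 543 and 520 CPM, but among them atoh7 was 3.49-fold lower in the mutant, with 495 and 167 reads. The 6 trunk and tail genes had 0 mutant reads, and in the wildtype hoxa9a and tbxta had 1 read each, HOXB9, HOXC10, cdx4 and HOXD11 none. Marker transcripts of other tissues differed between the libraries. The 6 lens genes summed to 891 and 86.6 CPM with each of them lower in the mutant, and the 5 red cell genes to 706 and 104 CPM. Of 7 heart genes 4 were at 0 in the wildtype and 2 in the mutant library (both named TNNT2, MYL7 and cmlc1, and 1 TNNT2 and myh6), with sums of 1.06 and 12.7 CPM. The 6 skeletal muscle genes summed to 9.82 and 13.6 CPM but went both ways. In the mutant pvalb2 (2 wildtype and 50 mutant reads) and both ACTA1 genes were higher, and MYOD1 (61 and 42 reads) was lower. Both TNNT3 genes had lower values (29 and 21 reads, and 18 and 11 reads), but the intervals of their folds include 1. The part of these tissue differences in the ratios below was not tested.

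Transcripts of the general splicing regulators were abundant in the head, and their total was near equal in both libraries. The 40 genes that averaged at least 1 CPM over both libraries summed to 13840 CPM in wildtype and 14000 CPM in mutant heads, or 1.38% and 1.40% of all reads. The hnrnp genes gave most of this, with 10320 and 10335 CPM, while the 16 measured srsf genes summed to 3519 and 3665 CPM. A mean of at least 100 CPM was reached by 30 of the 41 members (73.2%) and by 3.24% of all features. The plot of abundance by gene shows both libraries at nearly the same place for most members.

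**Figure D1:**
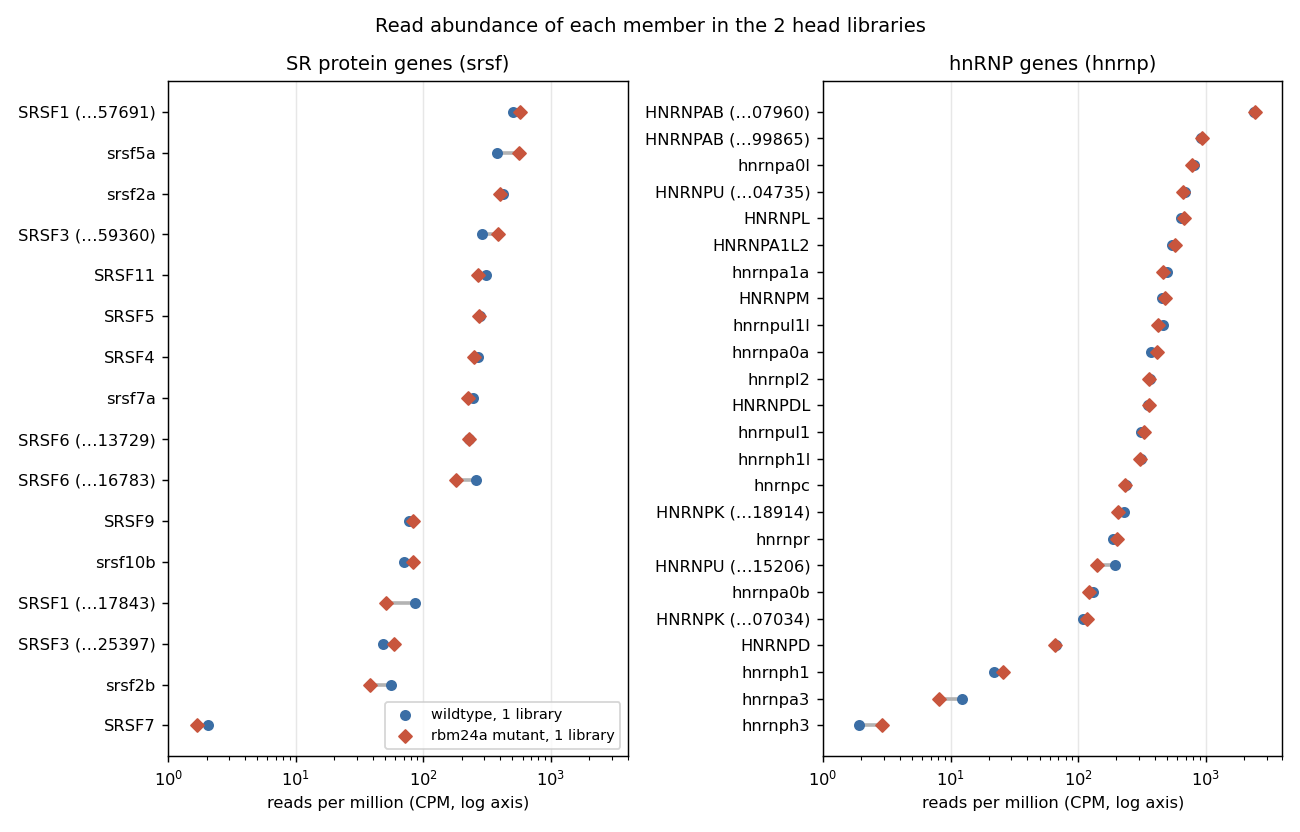
Abundance in CPM (log axis) of each srsf gene (left) and hnrnp gene (right) with a mean of at least 1 CPM, in the wildtype library (blue circles) and the rbm24a mutant library (red diamonds), 1 library each. Genes that share a symbol carry the last 5 digits of their identifier. Levels run from about 2 CPM for SRSF7 and hnrnph3 to 2390 to 2448 CPM for the HNRNPAB gene with more reads. The symbols of most genes lie on top of each other.

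None of the 40 members differed by 2-fold between the libraries, where 5.05% of the 18094 features averaging at least 1 CPM did. The ratio was log2 of mutant over wildtype CPM after adding 1 CPM to each, and 2-fold means an absolute value of at least 1. At 1.5-fold, 1 member was higher in the mutant library (srsf5a) and 1 lower (a SRSF1 gene), or 5.0% of the members against 14.8% of the features. Without a pseudocount 4 members reach 1.5-fold, hnrnpa3 and hnrnph3 being added. Most members are abundant, and features averaging at least 20 CPM, as 37 members do, passed 2-fold in 1.88% and 1.5-fold in 6.67% of 6976 cases. The 1.5-fold share of the members is thus near that of other abundant features.

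The ratios of the members centred on 0, with 19 above it and 21 below. Their median log2 ratio was -0.02, and 28 of 40 lay within 0.2 of 0 and 17 within 0.1. The median absolute log2 ratio was 0.10 for the members, 0.22 for all features tested and 0.16 for features of at least 20 CPM. The interquartile range of the log2 ratios was 0.21 for the members, 0.44 for all features tested and 0.32 for features of at least 20 CPM. The corresponding SDs across genes were 0.27, 0.51 and 0.38. By family the interquartile range was 0.16 for the hnrnp genes and 0.39 for the srsf genes. Only that of the hnrnp genes was narrower than the 0.32 of features of at least 20 CPM. In the 5 other splicing lists described below the interquartile range ran from 0.11 to 0.28, so a range like that of the members was not particular to them. No background matched to the members' abundance was made. These ranges describe genes of a single pair of libraries, and genes are not independent replicates.

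**Figure D2:**
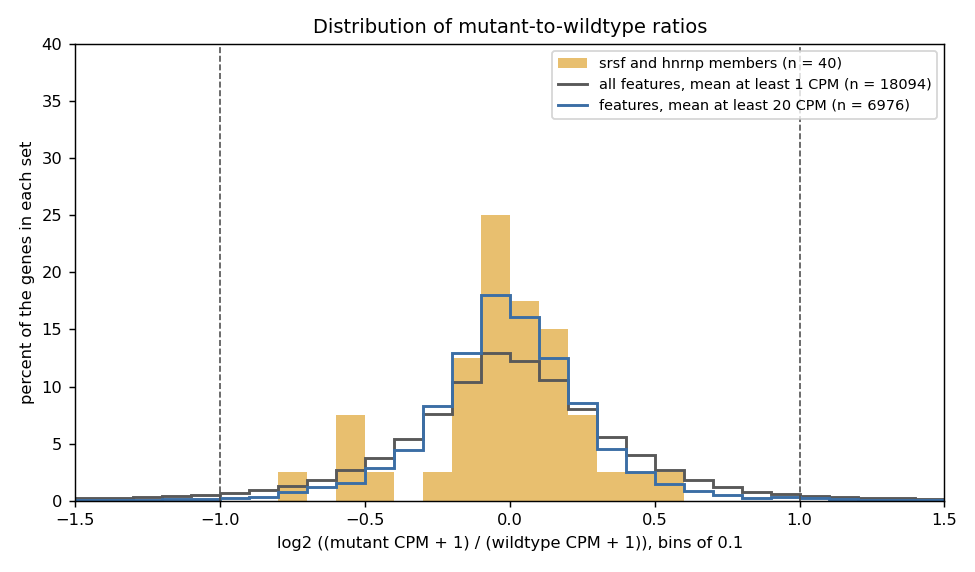
Share of genes (percent) in bins of 0.1 of the log2 ratio of mutant over wildtype CPM, each with 1 CPM added, for the 40 members (filled), all 18094 features averaging at least 1 CPM (grey line) and the 6976 averaging at least 20 CPM (blue line). Dashed lines mark 2-fold. No member reaches them, and the members' peak lies in the bin below 0.

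Within the members the srsf genes were spread more widely than the hnrnp genes. For the 16 srsf genes the log2 ratios ran from -0.76 to 0.59 with a median of -0.05, an interquartile range of 0.39 and an SD across genes of 0.36. For the 24 hnrnp genes they ran from -0.54 to 0.42 with a median of -0.01, an interquartile range of 0.16 and an SD of 0.19. Within 0.2 of 0 lay 8 of 16 srsf and 20 of 24 hnrnp genes. The median absolute log2 ratio was 0.20 for the srsf genes and 0.09 for the hnrnp genes. It was 0.22 for all features tested and 0.16 for features of at least 20 CPM, so the srsf genes were no nearer to 0 than other abundant features. The difference in spread between the families was not tested. Of the 8 members beyond 0.3 in either direction, 5 were srsf genes and 3 hnrnp genes. The same count over other features was not made. The 5% and 95% quantiles of the log2 ratio were -0.53 and 0.40 for the members. They were -0.75 and 0.68 for all features tested, and -0.51 and 0.45 for features of at least 20 CPM. By these quantiles the members reached about as far from 0 as other abundant features.

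**Figure D3:**
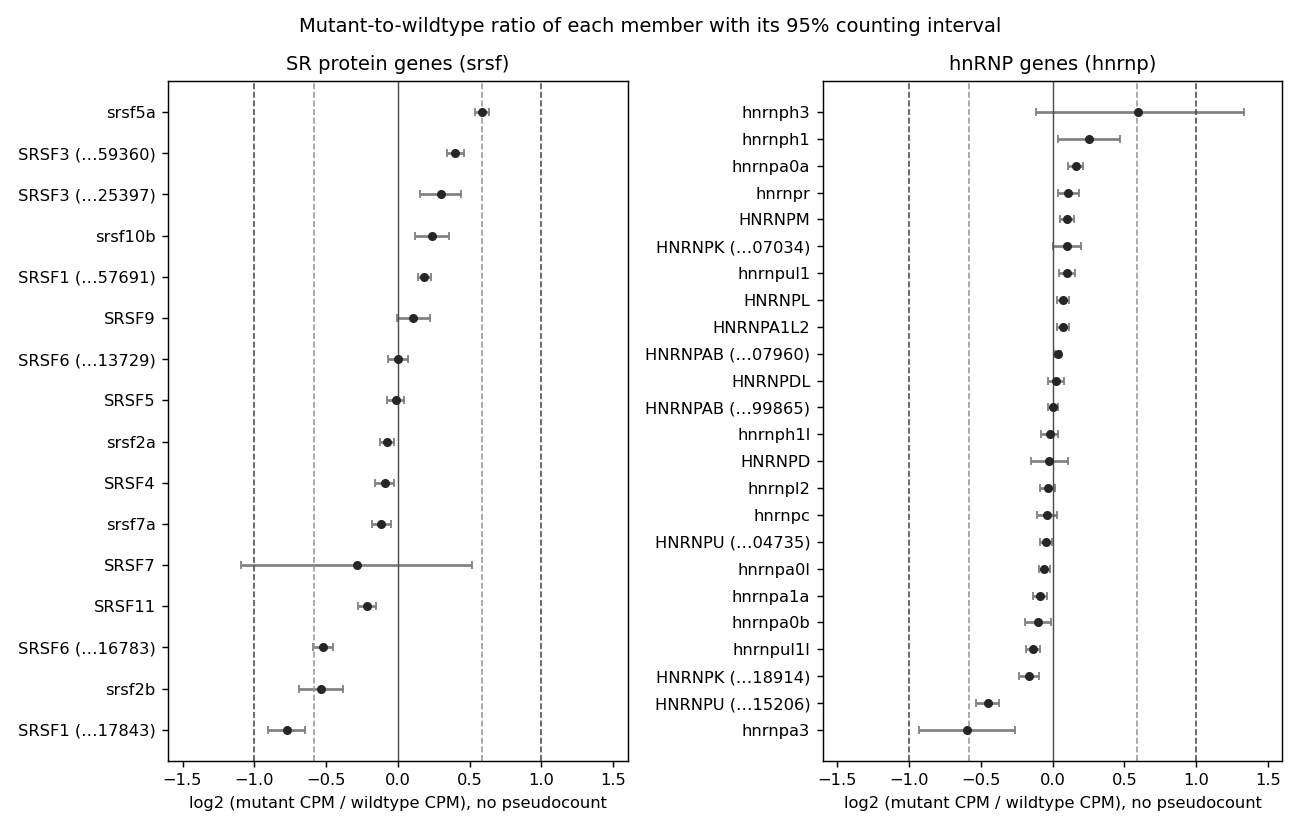
Log2 ratio of mutant over wildtype CPM without a pseudocount (points) and its 95% exact counting interval (bars) for each srsf gene (left) and hnrnp gene (right). Dashed lines mark 1.5-fold (inner) and 2-fold (outer). The srsf genes fan out from the less abundant SRSF1 gene at the bottom to srsf5a at the top, and the hnrnp genes crowd around 0 except for hnrnpa3, hnrnph3 and a HNRNPU gene.

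Among the SR genes that were higher in the mutant library, srsf5a (ENSDARG00000029818) had the highest ratio. SRSF5 is an SR protein with a pair of RNA recognition motifs that promotes inclusion of alternative exons in mammals. srsf5a had 375 CPM in wildtype and 564 CPM in mutant heads (5308 and 9403 reads), which is 1.504-fold higher with an interval of 1.45 to 1.56. Its log2 ratio of 0.587 lies just past the 1.5-fold line at 0.585, and a pseudocount of 5 CPM puts it below that line, as does a pseudocount of 1 added to the RPKM values. The gene named SRSF5 (ENSDARG00000027734) had 278 and 275 CPM, and its interval of 0.947 to 1.03 includes 1.

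Both SRSF3 genes were higher as well. SRSF3 is the smallest SR protein and also helps export messenger RNA from the nucleus in mammals. The more abundant gene (ENSDARG00000059360) had 291 and 384 CPM, 1.32-fold higher in mutant heads (1.27 to 1.37), and the other (ENSDARG00000025397) 48.2 and 59.3 CPM, 1.23-fold higher (1.11 to 1.36). A further row, srsf3a (ENSDARG00000100815), had 0 reads in both libraries, where 3 reads would be 0.212 wildtype or 0.180 mutant CPM. Its span in the table is 11032 bp, against 11236 bp for the less abundant SRSF3 gene, and whether the loci overlap was not tested. srsf10b, whose mammalian relative represses splicing during heat shock, had 70.7 and 83.5 CPM and a log2 ratio of 0.24. The abundant SRSF1 gene (ENSDARG00000057691) had 502 and 570 CPM and a ratio of 0.18.

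On the lower side stood the less abundant SRSF1 gene, srsf2b and a SRSF6 gene. SRSF1 is the founding member of the family, and its less abundant gene here (ENSDARG00000017843) had 86.8 CPM in wildtype and 50.7 CPM in mutant heads (1228 and 845 reads). The mutant level was 1.71-fold lower (1.57 to 1.87), the lowest ratio of the 40 members. srsf2b, a gene for an SR protein of nuclear speckles, had 55.3 and 38.1 CPM, 1.45-fold lower (1.31 to 1.62). One SRSF6 gene (ENSDARG00000016783) had 257 and 179 CPM, 1.44-fold lower (1.37 to 1.51), while the other SRSF6 gene (ENSDARG00000013729) had 228 CPM in both. SRSF6 shares the domain structure of SRSF5 and of SRSF4, a larger SR protein with a long arginine and serine tail.

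The remaining SR genes differed less. SRSF11, a more distant SR-related member, had 312 and 269 CPM and a log2 ratio of -0.21. srsf7a, which encodes an SR protein with a zinc knuckle that also serves in export in mammals, had 244 and 225 CPM (-0.11). The gene named SRSF7 (ENSDARG00000101057) had 29 and 28 reads. Its fold has an interval of 0.470 to 1.43 that includes 1, so a difference was not detectable at this depth. srsf2a (424 and 402 CPM), SRSF4 (268 and 251 CPM) and SRSF9 (77.6 and 83.6 CPM) had log2 ratios between -0.09 and 0.11.

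Among the hnRNP genes the A and B group led in reads. It holds small hnRNPs with a pair of RNA recognition motifs and a glycine-rich tail, and its 10 genes took 59.7% of the mutant reads of the hnrnp genes. The HNRNPAB gene ENSDARG00000007960 had 2390 CPM in wildtype and 2448 CPM in mutant heads, the most reads of any member and rank 42 of all features. The other HNRNPAB gene (ENSDARG00000099865) had 927 and 929 CPM. Both HNRNPAB genes together made up 32.1% of the wildtype and 32.7% of the mutant reads of the hnrnp genes, so their share hardly differed.

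The other A and B genes except hnrnpa3 lay within 0.2 of a log2 ratio of 0. hnrnpa0l had 815 and 783 CPM, HNRNPA1L2 543 and 570 CPM, hnrnpa1a 495 and 466 CPM and HNRNPDL 356 and 362 CPM. hnrnpa0a had a log2 ratio of 0.16, hnrnpa0b of -0.10 and HNRNPD, which in mammals also binds AU-rich elements of unstable messenger RNA, of -0.02. hnrnpa3 (ENSDARG00000059351) had 173 and 135 reads, 12.2 and 8.10 CPM. The mutant level was 1.51-fold lower (1.20 to 1.91), and its log2 ratio with the added 1 CPM was -0.54, just short of 1.5-fold.

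The U group, large proteins that bind both RNA and chromatin, had its reads mostly in 3 genes near 0. HNRNPU (ENSDARG00000004735) had 690 and 669 CPM, hnrnpul1 309 and 331 CPM and hnrnpul1l 464 and 422 CPM, with log2 ratios from -0.14 to 0.10. The less abundant HNRNPU gene (ENSDARG00000015206) had 194 and 142 CPM, which is 1.37-fold lower (1.30 to 1.45). Its log2 ratio of -0.45 was the second lowest of the hnrnp genes.

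In the F and H group, whose proteins bind runs of guanine, hnrnph1l carried most reads at 309 and 305 CPM. hnrnph1 had 21.8 and 25.9 CPM (log2 ratio 0.24). hnrnph3 had the highest ratio of the hnrnp genes, 0.42, but from 27 and 48 reads. Its 1.51-fold difference has an interval of 0.923 to 2.52 that includes 1. A difference was therefore not detectable at this depth.

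The other hnRNPs lay close to 0. HNRNPL, which binds CA repeats, had 640 and 673 CPM, and hnrnpl2 368 and 359 CPM. HNRNPM had 451 and 483 CPM, hnrnpr 186 and 201 CPM, and hnrnpc, which binds uridine tracts, 239 and 232 CPM. Of the HNRNPK genes, whose protein binds cytosine-rich RNA through KH domains, ENSDARG00000018914 had 230 and 205 CPM and ENSDARG00000007034 109 and 117 CPM. Their log2 ratios were -0.17 and 0.10.

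Copies of one gene were then set side by side, because a share of reads within a library does not depend on how the libraries are scaled. Of 25 stems, 14 had at least 2 copies with reads, 13 of them a pair. The most abundant copy of each was that with the highest mean CPM over both libraries. For SRSF6 this was not the copy with more wildtype reads, so its direction rests on that choice. In 10 of the 14 the part of the reads outside the most abundant copy was smaller in the mutant library. In 4 it was larger. These counts include pairs whose counting intervals overlap, namely those of SRSF7, HNRNPAB and SRSF3 on the smaller side and of hnrnph1 on the larger. The same count over pairs of other genes was not made, so no direction is read from these counts. The 3 largest shifts were in srsf pairs.

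The less abundant SRSF1 gene gave 14.7% of the SRSF1 reads in the wildtype (14.0% to 15.5%) and 8.17% in the mutant library (7.65% to 8.71%). SRSF5 gave 42.6% (41.6% to 43.6%) and 32.8% (32.0% to 33.6%) of the reads it shared with srsf5a. The SRSF6 pair changed order by reads, which does not compare its genes per length. Its gene ENSDARG00000016783 held 53.1% of the reads in the wildtype (51.9% to 54.2%) and 44.0% in the mutant library (42.8% to 45.2%). srsf2b held 11.6% (10.8% to 12.3%) and 8.65% (8.02% to 9.32%) of the srsf2 reads. The SRSF3 and SRSF7 pairs kept their proportions within their counting intervals, at 14.2% and 13.4% for the less abundant SRSF3 gene.

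Among pairs of hnRNP genes, the less abundant HNRNPU gene went from 21.9% to 17.5% of the pair, whereas hnrnpul1 gave 39.9% and 43.9% and the less abundant HNRNPK gene 32.2% and 36.3%. For HNRNPAB the shares were 28.0% and 27.5%. In the 3 hnrnpa0 genes, hnrnpa0a took 28.2% and 31.4% and hnrnpa0b 9.92% and 9.22%. How far near-identical stretches let reads move between copies was not tested, so single values of copies are uncertain.

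**Figure D4:**
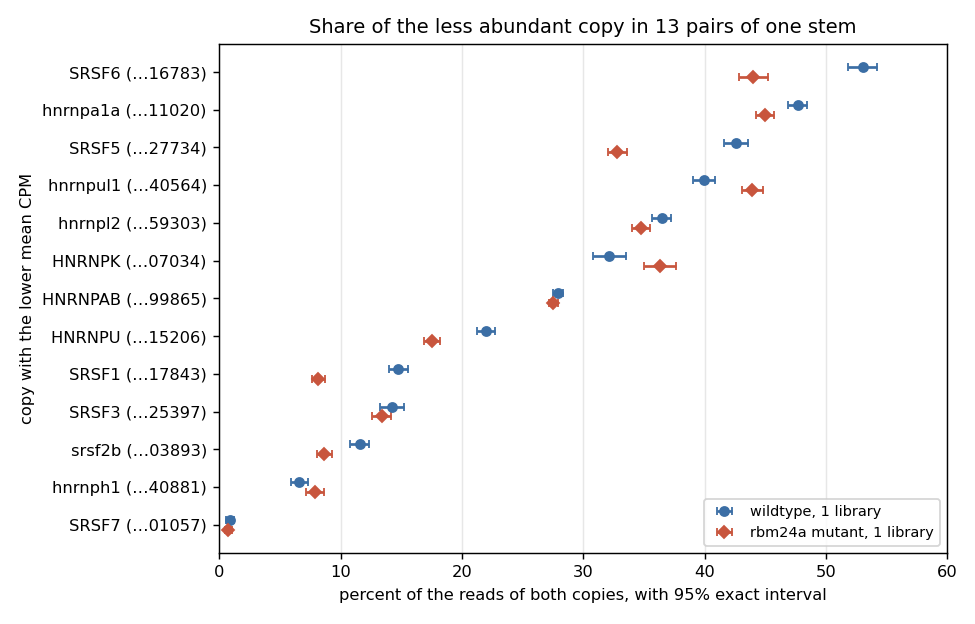
Percent of the reads of a pair that came from the copy with the lower mean CPM, in the wildtype library (blue circles) and the rbm24a mutant library (red diamonds), with 95% exact intervals for counting error. The intervals of SRSF6, hnrnpa1a, SRSF5, hnrnpl2, HNRNPU, SRSF1 and srsf2b lie apart with the mutant share lower, and those of hnrnpul1 and HNRNPK lie apart with the mutant share higher.

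Summed over copies, some of these differences cancelled and others did not. The SRSF1 pair summed to 589 CPM in wildtype and 621 CPM in mutant heads, 1.05-fold higher (1.02 to 1.08). The SRSF3 pair stayed 1.31-fold higher (1.26 to 1.36) and the SRSF5 pair 1.28-fold higher (1.25 to 1.32). The SRSF6 pair was 1.19-fold lower (1.15 to 1.23), and the srsf2 and HNRNPU pairs 1.09-fold lower. The 3 hnrnpa0 genes together had 1316 and 1319 CPM, and the hnrnpa1 genes 1038 and 1036 CPM.

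Levels of different genes can be compared only per length, for which the table gives RPKM, reads scaled to both the length in kilobases and the library total. hnrnpa0l was highest at 542 RPKM in wildtype and 521 RPKM in mutant heads. Next came HNRNPAB (ENSDARG00000099865) with 372 and 372 RPKM, the other HNRNPAB gene with 210 and 216 RPKM, and HNRNPL with 192 and 202 RPKM. By RPKM the order of both HNRNPAB genes was thus the reverse of that by reads. The highest srsf gene was SRSF1 (ENSDARG00000057691) with 77.8 and 88.3 RPKM, rank 12 of the members, followed by srsf5a with 65.7 and 98.7 RPKM. The order of both srsf genes thus differed between the libraries. The SRSF3 genes lay nearer to each other than by reads, ENSDARG00000059360 with 20.79 and 27.45 RPKM and ENSDARG00000025397 with 20.06 and 24.67 RPKM. The SRSF6 genes were near equal in the wildtype. ENSDARG00000016783 had 20.45 and 14.24 RPKM, and ENSDARG00000013729 had 20.30 and 20.32 RPKM.

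This scale has a limit. The length behind each RPKM, computed from its reads, was longer than the whole span of the gene in the table for 7 of 40 members. These were SRSF1 (ENSDARG00000057691), srsf2a, SRSF4, srsf5a, SRSF6 (ENSDARG00000016783), hnrnpa0a and hnrnpa0b. Among all annotated genes averaging at least 1 CPM, 3.05% had a length more than 2% longer than the span, a margin that all 7 members pass. For srsf2a the length was 11384 bp, 1.87 times its span of 6078 bp. No single transcript can be longer than its gene, and what this length stands for is not stated, so the order of genes by RPKM is uncertain. The RPKM ratio of a gene between the libraries, without a pseudocount, is not touched by it.

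Some members are direct neighbours, and the strand setting of the counting was not stated. In the RefSeq table of assembly GRCz12tu, hnrnpd lies next to hnrnpdl, hnrnpa0b next to hnrnpa0l, and srsf7a next to hnrnpl. It also places srsf7b next to hnrnpll, symbols that no member carries. Whether srsf7b is the gene named SRSF7 was not tested. Where such genes overlap, their reads cannot be told apart. The pairs of members had log2 ratios of -0.02 and 0.02, of -0.10 and -0.06, and of -0.11 and 0.07. In none of these pairs did either gene reach 1.5-fold.

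In the authors' deposited table of their comparison there are 37 genes, the smallest fold among them being 2.01. These genes of the authors' deposited table are 0.0718% of all features, and 0 of the 41 members and 0 genes of the other splicing lists below are among them, from which nothing is read about the members.

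Other parts of the splicing machinery were read from 5 lists with 171 symbols, of which 17 found no gene in the table. The lists held 156 genes. Over all features 2.22% were at least 2-fold higher and 2.82% at least 2-fold lower in the mutant library, and at 1.5-fold 6.95% were higher and 7.88% lower. Of the 18094 features 9011 had a log2 ratio above 0 and 9083 below 0. Ratios close to 0 can change sign with the scaling of the libraries, so no direction is read from the counts on each side of 0.

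Of 12 genes of SR kinases and nuclear import, none passed 1.5-fold in either direction, and the median log2 ratio was -0.10 with 8 of 12 below 0. The kinases put phosphate on the tail of SR proteins, and the transportin TNPO3 carries SR proteins into the nucleus. clk4a, a kinase of the nuclear speckle, had 116 and 83.9 CPM (log2 ratio -0.46), SRPK3 55 and 42 reads (-0.47) and srpk1b -0.27. Without the added 1 CPM SRPK3 was past the 1.5-fold line, 1.54-fold lower (1.01 to 2.36). At the upper end the CLK2 genes stood at 0.08 and 0.05 and TNPO2 at 0.05.

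Among 25 SR-related splicing proteins 1 was lower by 2-fold, none was higher by 1.5-fold, and the median was -0.09 with 19 below 0. The lower gene was rsrp1, which encodes a protein rich in arginine and serine. It had 60.1 CPM in wildtype and 29.0 CPM in mutant heads (851 and 484 reads), 2.07-fold lower (1.85 to 2.32). rsrc1 and SCAF4 followed at -0.45 and -0.32. SREK1 (0.43), thrap3b (0.27) and scaf11 (0.17) had the highest ratios.

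Of 33 hnRNP-type proteins whose symbol has another start, 1 was higher and none lower by 1.5-fold, and none passed 2-fold. The median was -0.01. pcbp3, a relative of hnRNP K, had 80 and 178 reads, 1.89-fold higher in mutant heads (1.44 to 2.49). EWSR1 (0.32) and PTBP3 (0.30) came next. The lowest was cirbpa, a cold-inducible RNA-binding protein gene, with 4135 CPM in wildtype and 2839 CPM in mutant heads, 1.46-fold lower (1.44 to 1.48). A PTBP2 gene stood at -0.47 and safb at -0.28.

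The core snRNP and spliceosome list had a median of 0.03 over 72 genes, 42 of them above 0. At 1.5-fold 2 were higher and none lower. SF3B5, a small subunit of the U2 particle, had 44.5 and 96.4 CPM (629 and 1607 reads), 2.17-fold higher in mutant heads (1.98 to 2.38), and was the 1 gene past 2-fold. CDC5L was 1.62-fold higher (1.53 to 1.72) and LSM7 had a log2 ratio of 0.52. The lowest were snrnp48 (-0.56), SNRNP35 (-0.45) and XAB2 (-0.32). Without the added 1 CPM snrnp48 was past the 1.5-fold line, 1.51-fold lower (1.24 to 1.85).

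Of 12 genes of the exon junction complex and nonsense-mediated decay, 1 was lower and none higher by 1.5-fold, with a median of -0.08 and 10 below 0. upf3a, a decay factor, had 151 and 91 reads, 1.95-fold lower (1.497 to 2.56). NCBP3 and CASC3 followed at -0.22 and -0.17. UPF3B and SMG5 stood at 0.17 and 0.18, and SMG9 at 0.00.

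**Figure D5:**
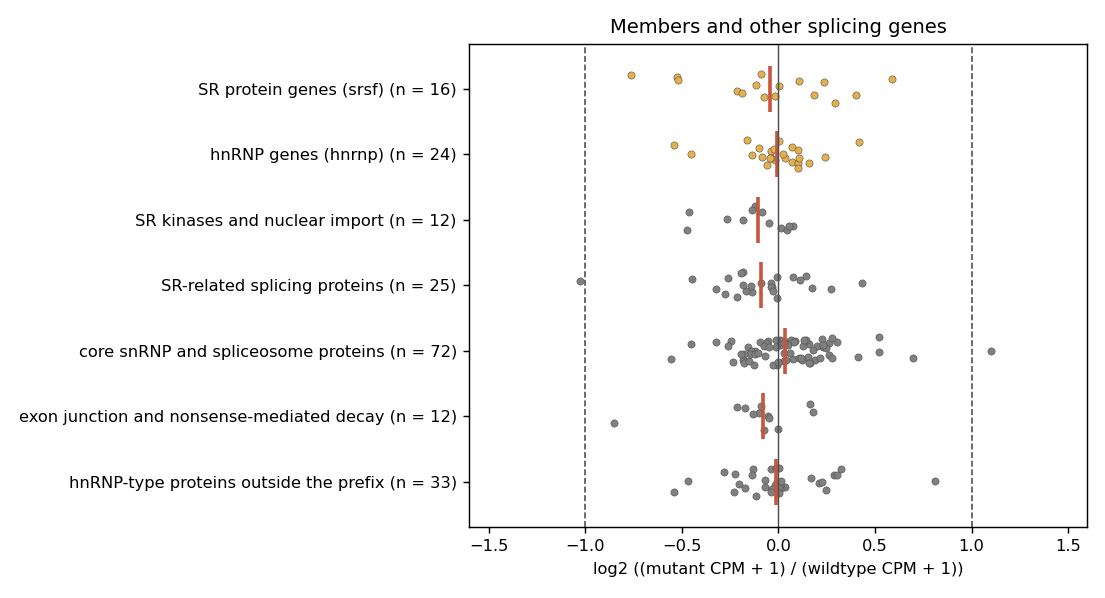
Log2 ratio of mutant over wildtype CPM, each with 1 CPM added, for every gene averaging at least 1 CPM of the srsf and hnrnp members (yellow) and of 5 other splicing lists (grey), with the median of each set as a red line. Dashed lines mark 2-fold. The medians lie between -0.10 and 0.03, and rsrp1 and SF3B5 are the points past the dashed lines.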

How the data were processed

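Per the labels' protocols a TruSeq kit and 100 bp paired reads were used. The submitters' processing notes name build GRCz11, DESeq2, HTSeq 0.6.1, HISAT2 2.0.1, cutadapt and bcl2fastq 2.17.1.14. Strand setting, annotation release and the role of each tool are not given in the sources. The table deposited by the authors gives raw read counts and RPKM for 51544 features. The second deposited table, the authors' comparison, has counts, FPKM, a fold or ratio, its log2 and p-values, and its identifiers and fold were used. No column belonged to other samples (0 columns).

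Symbols came from a names table, which named 26147 of 31571 annotated genes. It holds 42 srsf or hnrnp entries, of which 41 are in the deposited table. The RBM24 entries were told apart by span (35150 bp against 35948 bp for rbm24a in RefSeq). Where symbols of the lists had no match, a final a or b was dropped. Counts were scaled to CPM by the column sum. Features averaging at least 1 CPM were kept, and a pseudocount of 1 CPM was added for log2 ratios, which understates differences of low genes. Folds of single genes carry no pseudocount. PCR reads are not independent molecules. The log2 ratios and the intervals of folds were tested on simulated counts with counting error alone (Python 3.11.15, numpy 2.4.6, pandas 2.3.3, scipy 1.17.1). The other steps were not tested in this way. A planned description of the proteins and of coding lengths was not made.

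Members and lists were chosen with earlier results of these data known. Named members were the 6 highest and 6 lowest ratios and the 6 highest means of each family, those past 1.5-fold, those under 1 CPM and copies of one stem. The rest were named to account for every member. From each other list the 3 highest and 3 lowest ratios were named. Alternatives were other pseudocounts, filters, scalings and RPKM.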

Additional observations from a re-analysis of the deposited data

How the results depend on the processing

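No paired analysis was possible because both groups consist of 1 library, and leaving one out would end the comparison. Under 10 alternatives no member passed 2-fold. The number past 1.5-fold was 2, and became 1 with a pseudocount of 5 CPM. With deposited RPKM values, to which a pseudocount of 1 was added on their own scale, it was also 1. Leaving out genes that share a symbol or carry a suffix l for a like copy gave 1 as well. HNRNPL and HNRNPDL were kept in that setting. With a pseudocount of 0.1 CPM it was 3, hnrnpa3 being added. Without any pseudocount, a setting chosen after seeing the data, it was 4. srsf5a lies so close to that line that its side depends on the pseudocount. Median-of-ratios scaling moved the median of all features by 0.03 (log2). Across the alternatives the srsf median stayed between -0.08 and -0.01, the hnrnp median between -0.02 and 0.05 and the interquartile range between 0.19 and 0.21. The sign of the hnrnp median and of the median of the hnRNP-type list therefore depends on the scaling. Of 190 recomputed ratios of 32 named members, 2 moved beyond their counting interval (the less abundant SRSF1 gene with that pseudocount on its low RPKM values, -0.61, and the more abundant HNRNPAB gene with median-of-ratios scaling, 0.07) and none past 1.5-fold changed sign. SRSF7 and hnrnph3, with fewer than 50 reads in each library, are limited by depth.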
